A study of Homo sapiens with 4 samples.

Results

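The genes described here encode 9 apolipoproteins, APOA1, APOA2, APOA4, APOB, APOC1, APOC3, APOE, APOH and APOM, together with MTTP, the microsomal triglyceride transfer protein. They were taken from the deposited count table by gene symbol, and all 10 were present among 42169 gene rows and among the 13359 genes tested. Transcript levels were measured by sequencing of total RNA after depletion of ribosomal RNA in Huh7, an established human hepatocellular carcinoma line. Brf1/TTP DKO cells (clone 18), a double knockout by its label, were set against control cells (clone 1), labelled WT. BRF1 is here the product of ZFP36L1 and TTP that of ZFP36, and both proteins bind AU-rich elements in mRNAs and promote their decay. All cells had DMSO for 3 h and then actinomycin D, an inhibitor of transcription, in DMSO at 5 µg/ml for 10 min. Each genotype was a single clone with 2 libraries, so genotype and clone cannot be told apart. Separate cultures are not stated for these libraries, so p-values measure the spread between them, which may be technical.

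Apolipoproteins are the protein components of the particles that carry lipids through blood. In hepatocytes, APOB is the structural protein of very low density lipoprotein and is lipidated in the endoplasmic reticulum by MTTP, which works as a heterodimer with protein disulfide isomerase. APOA1 and APOA2 are the main proteins of high density lipoprotein, APOC1, APOC3 and APOE exchange between particles and govern their lipolysis and uptake, and APOM carries sphingosine-1-phosphate. APOH is beta-2-glycoprotein I, a plasma protein that binds anionic phospholipids.

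The knocked-out proteins recognise UAUUUAU and the shorter AUUUA in RNA, and both were searched for in the longest annotated 3′ UTR that follows the stop codon of the longest coding sequence. Of 11939 tested genes with such a UTR, 34.5% held UAUUUAU and 71.7% held AUUUA. Among the genes described here MTTP alone held UAUUUAU, at 2 places, and AUUUA was found in APOB, APOH and MTTP. The 3′ UTRs of the other apolipoprotein mRNAs are short, and the median of all 10 was 133 bases, against 1221 bases over the tested genes. The sites of MTTP, APOH and APOB are shown because they are the sequences in this gene set that carry these motifs. Capitals mark the motif, the positions are those of the motif on hg38 from GENCODE release 29, and MTTP lies on the plus strand and APOH and APOB on the minus strand. MTTP held 5 AUUUA matches in all, of which those inside UAUUUAU are 2. A match describes the letters and does not show binding. Over all tested genes with a UTR, the median log2 fold change (DKO over control) was 0.04 with UAUUUAU and -0.03 without it. Of genes with UAUUUAU 2.04% passed as higher in DKO, and of those without it 2.49%. Over these genes the log2 fold change had a Spearman correlation of -0.26 with transcript GC content. The part of GC content in the values by motif was not tested.
MTTP chr4:99623407-99623413: caagaauuaaUAUUUAUgucucuguua
MTTP chr4:99623845-99623851: cauuugcaaaUAUUUAUuaauaaacag
APOH chr17:66212062-66212066: ccuaauugaaAUUUAaaaauaaagc
APOH chr17:66212041-66212045: aagcuacugaAUUUAuugccgca
APOB chr2:21001706-21001710: agaaaucuucAUUUAuucuucuuuu

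Gene counts totalled 10271428 and 16430228 in the DKO libraries and 9685798 and 12507263 in the control libraries. Levels are given as CPM, counts scaled to a common total of gene counts, and 3 counts corresponded to between 0.183 and 0.310 CPM. The log2 fold changes are DKO over control from edgeR's quasi-likelihood test with their standard errors (SE), and a gene passed when its Benjamini-Hochberg adjusted p over all genes tested was under 0.05. In this comparison 5.37% of the genes tested passed, with 2.24% higher in DKO and 3.14% lower.

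The mRNAs of the knocked-out genes were still counted. ZFP36 had 37.5 and 36.2 CPM in DKO, against 30.0 and 23.3 CPM in control, a log2 fold change of 0.48 (edgeR adjusted p = 0.207). ZFP36L1 had 147 and 118 CPM in DKO, against 135 and 109 CPM in control, a log2 fold change of 0.13 (edgeR adjusted p = 0.775). A count over a whole gene does not show whether its coding sequence is disrupted, so it does not check the labels, and the genotypes are used as labelled. All 10 hepatocyte markers were tested, and their summed level was 15825 to 16081 CPM in DKO and 19009 to 19986 CPM in control, with AHSG (1.74) and TTR (0.78) higher and AFP (-1.13) lower, though TTR did not pass without DKO replicate 1 (0.87), DKO replicate 2 (0.70) or control replicate 2 (0.66), nor AFP without DKO replicate 2 (-1.09). Of 10 enterocyte markers 5 were tested and CDX2 (-1.84), SI (-5.21), CDH17 (-4.40) and MEP1A (-0.81) were lower, MEP1A not without DKO replicate 1 (-0.79) or DKO replicate 2 (-0.82), with sums of 459 to 491 CPM in DKO and 690 to 697 CPM in control. Of these markers 2 had no count in any library. The macrophage markers summed to 110 to 125 CPM in DKO and 75.6 to 77.5 CPM in control, nearly all of it LYZ, and 5 of 10 had no count in any library. Fibroblast and stellate markers summed to 146 to 151 CPM in DKO and 103 to 148 CPM in control. Endothelial markers summed to 28.4 to 30.1 CPM in DKO and 6.64 to 8.05 CPM in control, with PECAM1 (2.03) and LYVE1 (1.91) higher and 7 of 10 at no count. LYVE1, with 4 to 25 counts, did not pass without any one of the 4 libraries (1.89 to 1.91) or with DESeq2. With spike-in totals AHSG, TTR, AFP, MEP1A, PECAM1 and LYVE1 did not pass. The best expressed markers that did not pass were ALB (0.04), VIL1 (-0.16), COL1A2 (0.23), LUM (0.75), LYZ (0.62) and CD14 (1.31). The part of these differences in the results that follow was not tested. Each library was of a clone of the Huh7 line, so these markers name genes and do not count cells of these types. Bulk RNA does not show whether all cells of a clone or only some of them differed.

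Among the 10 genes, APOH rose, none fell, and 9 did not pass. By unadjusted p under 0.05 in edgeR, higher values numbered 4 and lower values 1 of the 10, beside 20.2% of all genes tested (9.57% higher and 10.6% lower). DESeq2 called APOH higher and MTTP lower. Of the 10 values 6 were positive and 4 negative, and their median was 0.32, against 0.0015 over all genes tested. In CPM, the DKO libraries exceeded the control libraries without overlap for 5 genes (APOH, APOA4, APOM, APOB and APOC3) and lay wholly below them for MTTP and APOC1. That is 7 of 10 genes with no overlap, against 49.9% of all genes tested. With 2 libraries against 2, a single gene cannot reach an exact 2-sided permutation p under 0.333, and the edgeR test rests on the spread shared between genes.

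Levels were compared between genes after division by transcript length. APOA2 was the highest at 2446 ± 287 CPM per kb in DKO and 2243 ± 170 CPM per kb in control (SD, n = 2), above every other gene of the set in both clones. In DKO, APOE at 823 ± 141 and APOB at 819 ± 162 CPM per kb followed and overlapped each other, then came APOA1 at 585 ± 131 and APOC1 at 419 ± 20.3 CPM per kb. In control the order was APOE at 1038 ± 428, APOA1 at 614 ± 176, APOB at 543 ± 113 and APOC1 at 493 ± 15.2 CPM per kb, and each of these overlapped the next in its 2 libraries. The lower ranks were separate in both clones. MTTP and APOH changed places, with APOH above MTTP in DKO and MTTP above APOH in control. APOM, APOC3 and APOA4 came last in both, and APOA4 was at 2.70 ± 0.918 CPM per kb in DKO and 1.48 ± 0.210 CPM per kb in control. Since a long mRNA yields more reads, APOB made up 75.3% to 82.9% of the reads of the 10 genes in DKO and 63.5% to 76.1% in control. It had more counts than any other gene in both DKO libraries and in control replicate 1, and was number 5 by counts in control replicate 2.

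**Figure D1:**
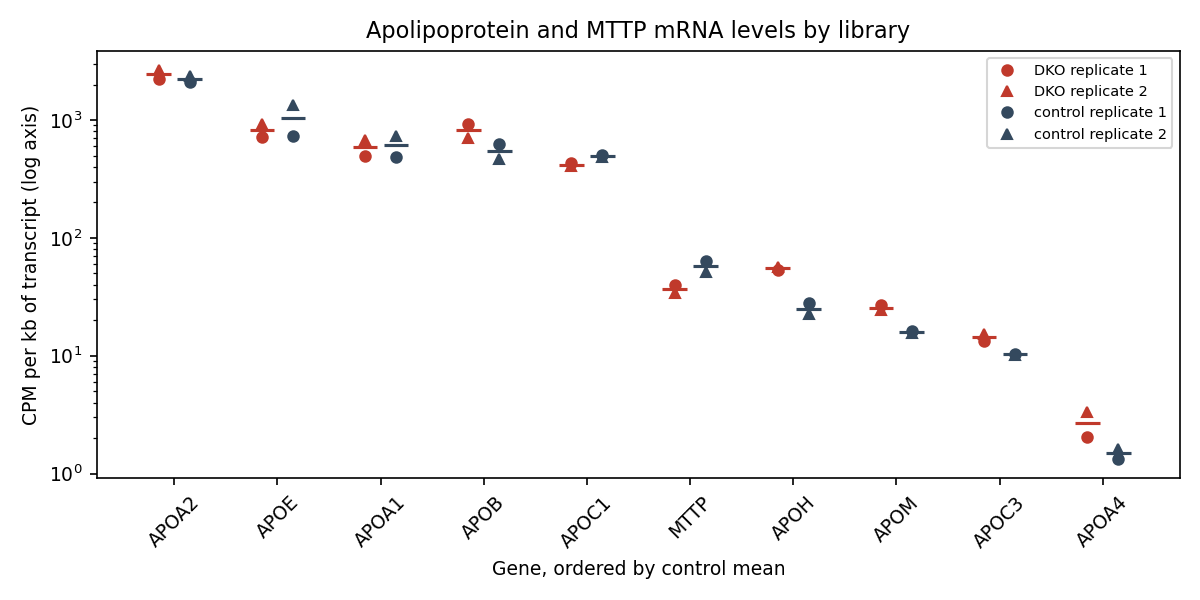
Levels of the 10 mRNAs in CPM per kb of transcript on a log axis, with 1 point per library (circles replicate 1, triangles replicate 2) and bars at the mean of 2 libraries, DKO in red and control in dark blue. APOA2 is highest in both clones, and APOH and MTTP exchange places between them.

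APOH mRNA was higher in DKO cells and was the one gene of the set that passed. The gene is on chromosome 17 (66212033 to 66256525, minus strand, ENSG00000091583.10), and all gene positions are those of GENCODE release 29 on hg38. It had 63.4 and 67.2 CPM in the DKO libraries, against 32.7 and 26.4 CPM in the control libraries. Both DKO values were far above both control values, and the means of 65.3 ± 2.70 and 29.6 ± 4.49 CPM (SD, n = 2 each) differed by 1.16 on the log2 scale (SE 0.20, edgeR adjusted p = 0.0036), or 2.23-fold. Without DKO replicate 2 the value was 1.09 and did not pass (edgeR adjusted p = 0.0546), and with spike-in totals as library sizes it was 0.49 (edgeR adjusted p = 0.503). The 5 tested genes on each side of APOH had a median of -0.03, and none of these 10 passed in edgeR. Of these 10, 2 had an unadjusted p under 0.05 in edgeR, beside 20.2% of all genes tested. The tested protein-coding genes of at least 10 CPM whose pattern over the 4 libraries was nearest to that of APOH, by Euclidean distance of centred log2 CPM among 9063 genes, were GNG5 (distance 0.0864), GTSF1 (0.119) and HIST1H2BE (0.127). Their log2 fold changes were 1.09, 1.21 and 1.17, and like APOH they did not pass without DKO replicate 2 (1.06, 1.11 and 1.02). Likeness over 4 libraries in 2 clones is a description, and HIST1H2BE shares near-identical sequence with other histone genes.

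APOB and MTTP, which act together in particle assembly, had values of opposite sign. APOB (chromosome 2, 21001429 to 21044073, minus strand) had 13177 and 9946 CPM in DKO, against 8786 and 6539.8 CPM in control. The DKO values were the higher ones, but replicates of a clone also differed widely. The log2 fold change was 0.61 (SE 0.27), with an edgeR adjusted p = 0.2202 that did not pass. It passed when no filter on low counts was used (0.62, edgeR adjusted p = 0.0197), and its value was -0.011 with spike-in totals. MTTP (chromosome 4, 99563761 to 99623999, plus strand) had 163 and 140 CPM in DKO, against 262 and 209 CPM in control. Both DKO libraries lay below both control libraries, the means were 151 ± 16.5 and 235 ± 37.5 CPM (SD, n = 2 each), and the log2 fold change was -0.62 (SE 0.20), short of the threshold (edgeR adjusted p = 0.0790). MTTP passed with DESeq2 (-0.63, DESeq2 adjusted p = 0.0465) and without control replicate 2 (-0.76, edgeR adjusted p = 0.0275). With spike-in totals, where the median of all genes tested was -0.68, its value was -1.26 and did not pass (edgeR adjusted p = 0.182). Over 272 bases, of the 60239 that it spans, MTTP overlaps TRMT10A on the other strand, which had 61 and 93 counts in DKO and 77 and 68 in control, against 1674 and 2294 for MTTP in DKO and 2533 and 2608 in control. Enterocytes also express MTTP and APOB, and the enterocyte markers named above were lower in the same libraries, and their part in these values was not tested.

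The balance of these mRNAs within a library does not depend on how libraries are scaled. APOB had 80.9 and 71.2 counts for each MTTP count in the DKO libraries, against 33.6 and 31.4 in the control libraries. The mean ratio was 76.0 ± 6.80 in DKO and 32.5 ± 1.58 in control (SD, n = 2 each), 2.34-fold higher in DKO. The ratio differed little between libraries of a clone and widely between clones. The difference of the fitted log2 fold changes, APOB minus MTTP, was 1.23, and ran from 1.13 to 1.31 over the fits without 1 library. It was 1.25 with spike-in totals and 1.25 with GC trends removed. Library scaling largely cancels in this difference and the GC contents of both genes are close, so these fits could hardly move it. The APOB to MTTP ratio was chosen after the values were seen and is given with no test. The ratios of APOE to APOC1, APOA1 to APOC3 and APOA1 to APOA2 per kb varied more within the clones. For APOE to APOC1 they were 1.67 and 2.28 in DKO and 1.46 and 2.78 in control. Transcript GC content was 43.5% for APOB and 42.1% for MTTP. It was 68.5% for APOE, 56.7% for APOC1, 64.6% for APOA1, 60.4% for APOC3 and 53.4% for APOA2. The part of GC content in the spread of these ratios was not tested.

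**Figure D2:**
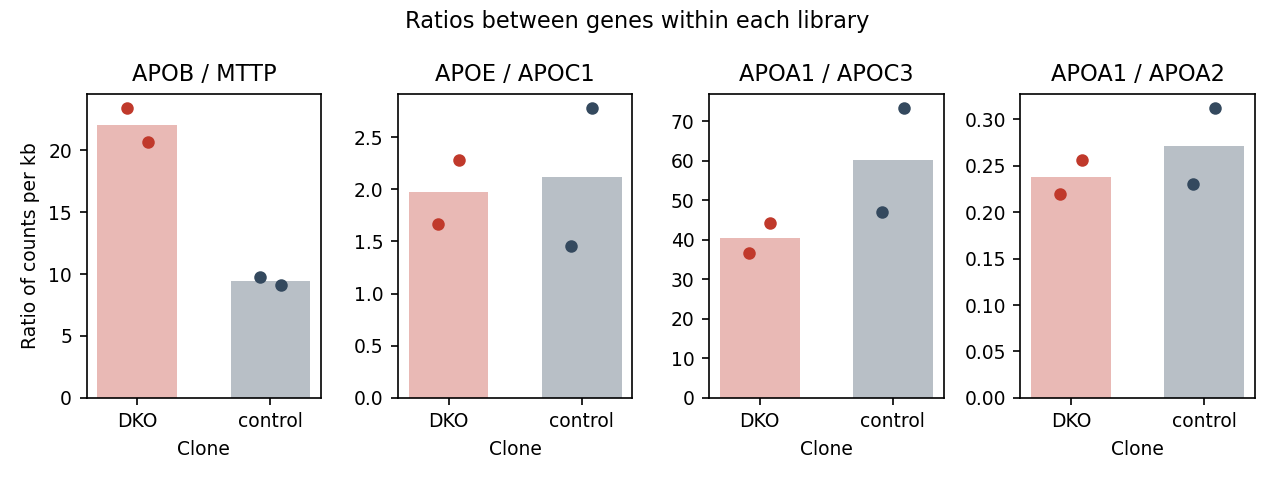
Ratios of counts per kb of transcript between pairs of genes, with bars at the mean of 2 libraries from 0 and 1 point per library, DKO left and control right in each panel. The APOB to MTTP ratio is 20.6 and 23.4 in DKO and 9.09 and 9.74 in control, while APOE to APOC1 and APOA1 to APOA2 overlap between the clones and APOA1 to APOC3 is lower in both DKO libraries (36.8 and 44.2) than in the control libraries (46.9 and 73.4).

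No mRNA for the proteins of high density lipoprotein passed. APOA1 (chromosome 11, 116835751 to 116837950, minus strand) had 456 and 628 CPM in DKO, against 454 and 684 CPM in control, and its log2 fold change was -0.06 (SE 0.25; edgeR adjusted p = 0.921). APOA2 (chromosome 1, 161222292 to 161223631, minus strand) had 944 and 1115 CPM in DKO, against 894 and 995 CPM in control, and its log2 fold change was 0.13 (SE 0.22; edgeR adjusted p = 0.796). In both genes the libraries of the clones overlapped. APOM (chromosome 6, 31652416 to 31658210, plus strand) had 19.0 and 17.3 CPM in DKO, against 11.5 and 11.1 CPM in control. Its replicates lay close together and the clones apart, and the log2 fold change of 0.69 (SE 0.23) had an edgeR adjusted p = 0.0941, not passing. APOM overlaps BAG6 on the other strand, which had 2962 and 5819 counts in DKO and 2701 and 3835 in control, against 195 and 284 for APOM in DKO and 111 and 139 in control. BAG6 itself was at 0.15. No source used here gives the strand setting of the counting, so reads over the 290 bases that the genes share, of the 5795 bases that APOM spans, cannot be assigned to either. With spike-in totals the value of APOM was 0.018 (edgeR adjusted p = 0.981).

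The exchangeable apolipoproteins lie in gene clusters. On chromosome 19, APOE (44905754 to 44909393, plus strand) had 873 and 1115 CPM in DKO, against 888 and 1619.5 CPM in control. The control libraries differed from each other more than the clones did, and its log2 fold change was -0.33 (SE 0.28; edgeR adjusted p = 0.555), which turned to 0.20 without control replicate 2. APOC1 (44914247 to 44919349, plus strand), a neighbour of APOE, had 184 and 172 CPM in DKO, against 214 and 205 CPM in control. All DKO values were below the control values, with a log2 fold change of -0.22 (SE 0.19) and an edgeR adjusted p = 0.544, not passing. APOC1 has a near-identical pseudogene that can share its reads, and how multiply matching reads were counted is not stated, so its level is uncertain. Over 722 of the 5103 bases that it spans, APOC1 also overlaps AC011481.3 on the same strand. AC011481.3, counted among the neighbours, had 35 and 49 counts in DKO and 41 and 45 in control. APOC1 had 1893 and 2828 counts in DKO and 2074 and 2564 in control. The 11 tested neighbours of this cluster, BCL3 to ZNF296, had a median of -0.14, and none passed in edgeR. Of these 11, 1 had an unadjusted p under 0.05 in edgeR, beside 20.2% of all genes tested.

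On chromosome 11, APOA4, APOC3 and APOA1 stand side by side. APOA4 (116820700 to 116823306, minus strand), made mainly by the intestine in humans, had 31 and 81 counts in DKO, against 19 and 30 counts in control, or 3.02 and 4.93 CPM against 1.96 and 2.40 CPM. The DKO libraries lay above the control libraries at these low counts, and the log2 fold change was 0.89 (SE 0.36; edgeR adjusted p = 0.179). APOC3 (116829706 to 116833072, plus strand), an inhibitor of lipoprotein lipase, had 8.08 and 9.25 CPM in DKO, against 6.30 and 6.08 CPM in control. Its clones did not overlap either, and the log2 fold change was 0.50 (SE 0.26; edgeR adjusted p = 0.3003). APOA5, the fourth gene of the cluster, had 7 and 10 counts in DKO and 3 and 3 in control and was not tested. All 10 tested neighbours had positive values, from 0.06 to 1.01, with a median of 0.49, and RBM7 passed (1.01, edgeR adjusted p = 0.0440). Neighbours here are the nearest 5 tested genes on each side at any distance, and RBM7, the farthest on its side, lies at 114400030 to 114414203. Of these 10 neighbours, 5 had an unadjusted p under 0.05 in edgeR, beside 20.2% of all genes tested. Leaving out DKO replicate 1 (0.87), DKO replicate 2 (1.13) or control replicate 2 (0.63) ended the RBM7 call, as did spike-in totals (0.41). The part of these neighbouring values in those of APOA4 and APOC3 was not tested. The 10 tested neighbours each of APOA2, APOB, APOM and MTTP were looked at after the values were seen. Their medians were 0.03, 0.02, 0.01 and 0.13, and none passed in edgeR. At an unadjusted p under 0.05 in edgeR there were 1, 1, 1 and 2 of 10, beside 20.2% of all genes tested.

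**Figure D3:**
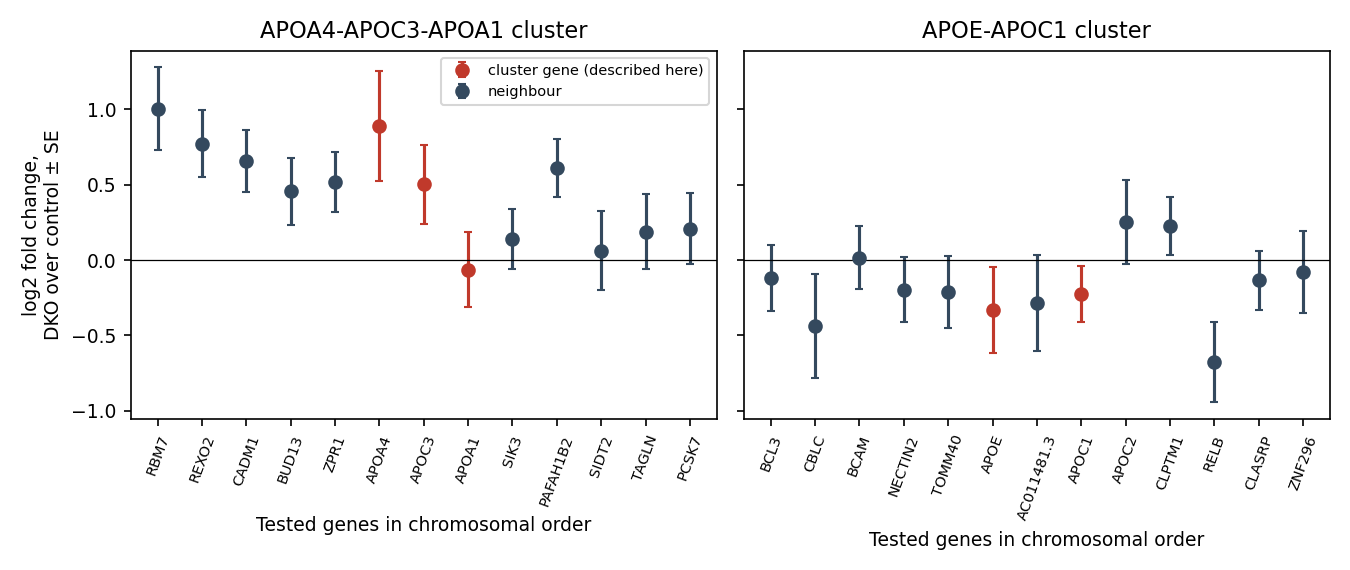
Log2 fold changes (DKO over control, ± SE) of the clustered apolipoprotein genes in red and of their tested neighbours in dark blue, in chromosomal order. All 10 neighbours of the APOA4-APOC3-APOA1 cluster lie above 0, and those of the APOE-APOC1 cluster lie on both sides of it.

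Same-numbered libraries of the clones departed from their clone mean in like fashion, and GC content moved with this. Across 11939 genes, the log2 ratio of replicate 2 to replicate 1 had a Spearman correlation with transcript GC content of 0.54 in DKO and 0.71 in control, and the log2 fold change between clones had one of -0.26. These are descriptions across genes of the same libraries. APOE and APOA1, with GC contents of 68.5% and 64.6%, had replicate 2 above replicate 1 by log2 ratios of 0.35 and 0.46 in DKO and 0.87 and 0.59 in control. APOB and MTTP, with 43.5% and 42.1%, had replicate 2 below replicate 1, with log2 ratios of -0.41 and -0.22 in DKO and -0.43 and -0.33 in control. The other genes of the set were less regular. In DKO and control, APOH (42.9%) had 0.08 and -0.31, APOM (53.0%) -0.13 and -0.04, and APOA2 (53.4%) 0.24 and 0.15. APOC1 (56.7%) had -0.10 and -0.06, APOC3 (60.4%) 0.18 and -0.05, and APOA4 (61.0%) 0.63 and 0.24. With the GC trend of each library removed, 22.1% of 11939 genes passed. Then 5 of the 10 genes passed, which were APOH (1.10, edgeR adjusted p = 2.22e-05), APOM (0.75, edgeR adjusted p = 0.00441), APOA4 (1.04, edgeR adjusted p = 0.0201) and APOC3 (0.63, edgeR adjusted p = 0.0403) higher in DKO and MTTP (-0.70, edgeR adjusted p = 0.000668) lower. APOB was at 0.55 (edgeR adjusted p = 0.0688), APOE at -0.04 and APOA1 at 0.14. This correction was chosen after seeing the data, and it takes the fitted trends as known, so its p-values may be too small.

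**Figure D4:**
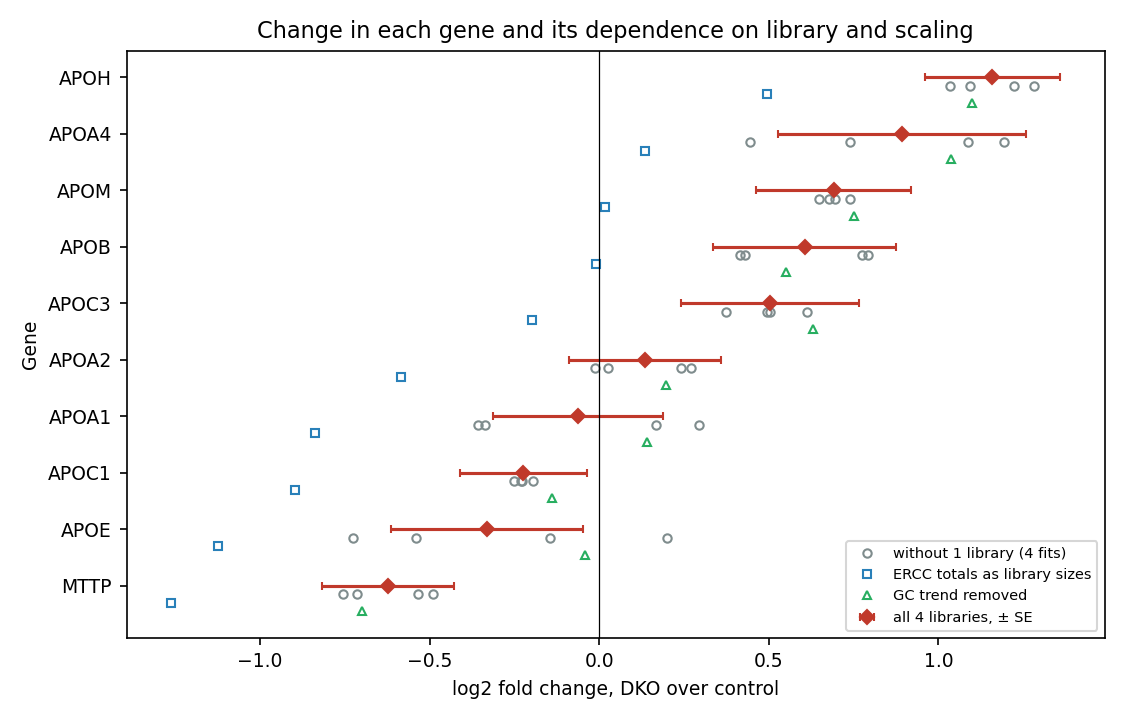
Log2 fold changes (DKO over control) of the 10 genes with all 4 libraries (red diamonds, ± SE), in the 4 fits without 1 library (grey circles), with ERCC spike-in totals as library sizes (blue squares) and with the GC trend removed (green triangles). APOH, APOA4 and APOM stay above 0 and MTTP, APOE and APOC1 lie below 0 in these fits, apart from APOE at 0.20 without control replicate 2. The spike-in values are shifted down together.

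Other genes of lipoprotein metabolism were grouped into lists. Of 7 tested among 18 other apolipoproteins and associated proteins, APOO rose, a mitochondrial protein of the MICOS complex despite its name, with 18.9 and 20.1 CPM in DKO and 11.7 and 9.99 CPM in control (log2 fold change 0.86, edgeR adjusted p = 0.0408). The APOO call ended on leaving out DKO replicate 1 (0.93), DKO replicate 2 (0.79) or control replicate 2 (0.78), with DESeq2 (0.86) or with spike-in totals (0.19). None fell, 6 did not pass and the median was 0.25, beside 5.37% of all genes tested that passed. At an unadjusted p under 0.05 in edgeR, 1 of the 7 was higher and 0 were lower, beside 9.57% and 10.6% of all genes tested. The leading member by level, CLU, which encodes clusterin, had 1171 and 1387 CPM in DKO and 1184 and 1394 CPM in control. APOC2, the activator of lipoprotein lipase, had a log2 fold change of 0.25 (edgeR adjusted p = 0.664).

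No gene of lipoprotein assembly and secretion passed among 29 tested, with 19 positive values and a median of 0.12. By unadjusted p under 0.05 in edgeR, higher values numbered 5 and lower values 2 of these 29, a share to be read beside the 20.2% of all genes. Both DESeq2 and limma-voom called 0 genes, while spike-in totals and no filter gave 1 each. With GC trends removed there were 8, beside 22.1% of all genes in that fit. P4HB, the protein disulfide isomerase subunit that pairs with MTTP, had 1053 and 1286 CPM in DKO and 1303 and 1583 CPM in control, a log2 fold change of -0.29 (edgeR adjusted p = 0.525). ARF1, a small GTPase of vesicle coats, had 549 and 624 CPM in DKO and 405 and 431 CPM in control, a log2 fold change of 0.50 (edgeR adjusted p = 0.1799).

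Among 11 tested genes of lipoprotein remodelling in plasma, LIPG rose, LIPC fell and 9 did not pass (median 0.01), beside 5.37% of all genes tested that passed. At an unadjusted p under 0.05 in edgeR, 3 of the 11 were higher and 1 was lower, beside 9.57% and 10.6% of all genes tested. LIPG, endothelial lipase, had 96.5 and 92.3 CPM in DKO, against 48.3 and 46.3 CPM in control, at 1.01 on the log2 scale (SE 0.19; edgeR adjusted p = 0.0068). LIPC, hepatic lipase, had 47.1 and 51.3 CPM in DKO, against 85.0 and 96.4 CPM in control, at -0.87 on the log2 scale (SE 0.20; edgeR adjusted p = 0.0185). In both lipases replicates lay close together, and neither call held without DKO replicate 1 or DKO replicate 2 or with spike-in totals, where values were 1.00, 1.02 and 0.33 for LIPG and -0.79, -0.96 and -1.59 for LIPC. FURIN, a protease that cleaves lipases, was at 0.01.

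Of 19 tested receptors and efflux transporters, ABCG8 was called higher, none fell, and 15 of 19 values were negative with a median of -0.14. At an unadjusted p under 0.05 in edgeR, 1 was higher and 5 were lower, beside 9.57% and 10.6% of all genes tested. ABCG8, a sterol transporter subunit, rested on 14 and 23 counts in DKO and 2 and 0 counts in control, a ratio of 15.4 with an exact 95% interval of 3.97 to 131.7 that covers counting error only, and its call was lost without control replicate 2, without DKO replicate 2 and with DESeq2. SCARB1, the receptor for high density lipoprotein, was at -0.12. Of 33 tested regulators of apolipoprotein transcription, PPARGC1B, a coactivator of nuclear receptors, fell and none rose, with 8.86 and 5.84 CPM in DKO and 17.9 and 16.7 CPM in control (-1.24, edgeR adjusted p = 0.0125). Without DKO replicate 2 its value was -0.97 and did not pass. The other 32 did not pass, beside 5.37% of all genes tested that passed. Of the 33 values 10 were positive and 23 negative, with a median of -0.16. At an unadjusted p under 0.05 in edgeR, 2 were higher and 6 were lower, beside 9.57% and 10.6% of all genes tested. The best expressed for their length were CEBPA (-0.18) and NR2F6 (-0.29). None of 4 tested genes of APOB mRNA editing passed in edgeR, DESeq2 or limma-voom (median -0.08), among them HNRNPAB (-0.18) and SYNCRIP (0.16). At an unadjusted edgeR p under 0.05, 1 of these 4 was lower, beside 10.6% of all genes tested.

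**Figure D5:**
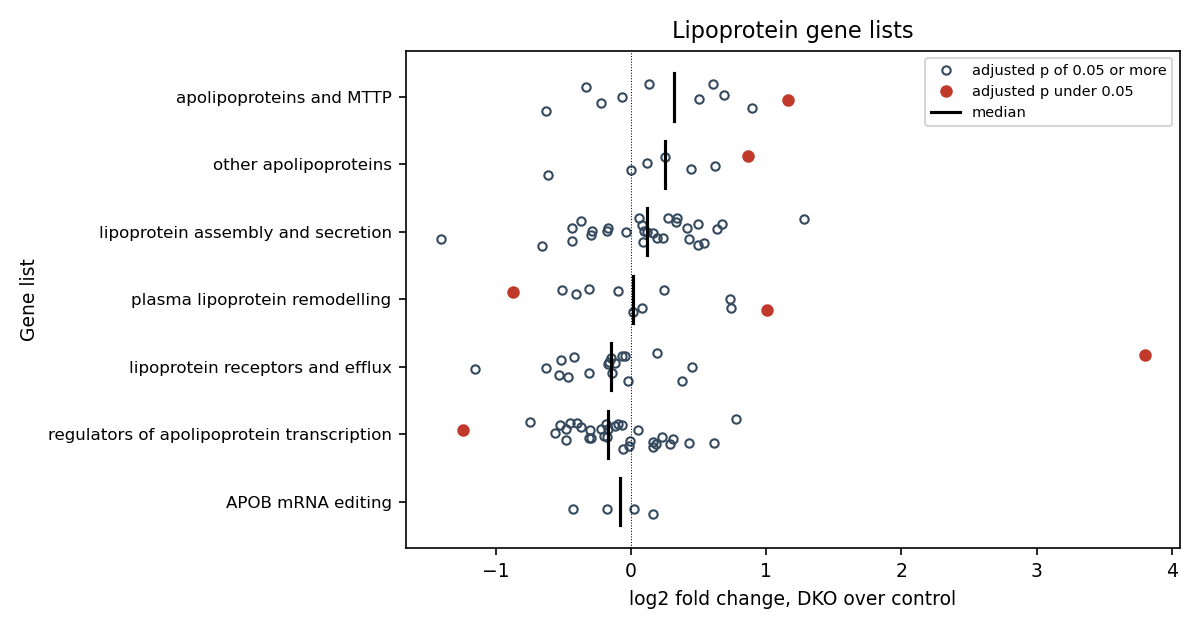
Log2 fold changes (DKO over control) of every tested gene in 7 lists, with filled red points for genes with an adjusted p under 0.05, open points for the rest and a black bar at each median. The filled point farthest to the right is ABCG8, which had 2 counts in the control libraries.

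The promoter of MTTP is shown because this gene had the lowest log2 fold change of the set. RefSeq gives a promoter for 7 of the 10 genes (GRCh38.p14), and the 250 bases before the start were searched on both strands for AGGTCA, a core of nuclear receptor sites, and TGTTTAC, a core of FOXA sites. Of 34788 promoter windows 12.02% held AGGTCA and 2.98% TGTTTAC. Among the 7 genes, AGGTCA was in MTTP and TGTTTAC in APOA2. Capitals mark the match, with TGACCT the motif on the opposite strand. The sequence is read 5′ to 3′ on the plus strand, that of the gene, and the window is the one before the later of its annotated starts. HNF4A, which binds nuclear receptor sites of many apolipoprotein genes, had 345 and 340 CPM in DKO and 463 and 497 CPM in control and did not pass (-0.48, edgeR adjusted p = 0.181).
MTTP chr4:99574574-99574823: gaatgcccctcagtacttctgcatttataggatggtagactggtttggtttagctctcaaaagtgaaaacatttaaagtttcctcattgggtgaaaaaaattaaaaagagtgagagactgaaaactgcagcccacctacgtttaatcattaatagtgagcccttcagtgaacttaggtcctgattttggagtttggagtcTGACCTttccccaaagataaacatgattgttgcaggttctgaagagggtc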

How the data were processed

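Total RNA of 2 DKO and 2 control libraries, with ERCC spike-in RNA added before depletion of ribosomal RNA, was sequenced from 1 end with a strand-keeping kit, per the labels' protocols. The authors deposited raw whole-number counts for each gene, not normalized. The submitters' processing notes list the hg38 build, DESeq2, featureCounts, Subread (1.6.3) and STAR (2.5.3a). No source used here names the annotation or strand setting of the counting. Of 42261 rows, 92 spike-ins were left out of gene totals. Genes were kept by filterByExpr (minimum count 10, minimum total 15), scaled by TMM and tested across all genes in R 4.3.3 with edgeR 4.0.16 (glmQLFit and glmQLFTest, group as the single term, Benjamini-Hochberg adjustment). The scripts were tested on simulated data. Symbols were matched to GENCODE release 29 for positions, lengths, GC content and UTRs. Transcript length and GC content are those of the transcript with the searched 3′ UTR. Counts of 2 libraries of a clone differed by more than sampling noise (chi-square per degree of freedom 27.1 in DKO and 33.6 in control). Intervals and floors cover counting error only, since no molecular identifiers are described. Alternatives were RLE scaling, spike-in totals, no filter, DESeq2 1.42.0, limma-voom (limma 3.58.1), the replicate number as a block, leaving out each library and, added after seeing the data, removal of GC trends by lowess offsets. Named genes were the 10 genes, every gene of the other lists that passed, the 2 highest per length in each list, tested neighbours, and the 3 nearest patterns to the gene of smallest adjusted p; a few genes that this rule names, and 1 of the promoter motifs searched, are not reported here. HNF4A, APOA5 and APOC2 were named after their values were seen, and ZFP36 and ZFP36L1 as the knocked-out genes. The genes and lists were chosen with earlier results of these data known.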

Additional observations from a re-analysis of the deposited data

How the results depend on the processing

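The number of genes called was 718 with all 4 libraries, 329 with spike-in totals, 1194 without a filter, 4021 with the replicate number as a block, 2644 with GC trends removed and 218 to 2172 without 1 library. Of the 10 apolipoprotein and MTTP genes, 1 was called (APOH), 0 with spike-in totals, 2 without a filter (APOB and APOH), 2 with DESeq2 (APOH and MTTP), 5 with the replicate block (APOA4, APOB, APOH, APOM and MTTP), 5 with GC trends removed and 0 to 2 without 1 library. Of the lipoprotein lists 5 genes were called, 3 with spike-in totals, 3 with DESeq2, 39 with the replicate block (14 of them in assembly and secretion), 28 with GC trends removed and 0 to 18 without 1 library. These counts are read beside those over all genes, 4021 of 13359 with the replicate block and 2644 of 11939 with GC trends removed. Deviations of same-numbered libraries correlated at 0.454, over 2 pairs. Mitochondrial genes held 3.59% and 1.16% of counts in DKO replicates 1 and 2, against 2.53% and 0.448% in control. The labels give no pairing, and what same-numbered libraries share beyond the number was not tested. Direction changed for APOA1 without DKO replicate 1 (0.17), without control replicate 2 (0.30; range without 1 library -0.36 to 0.30) and with GC trends removed (0.14), for APOA2 without DKO replicate 2 (-0.013; range -0.013 to 0.27), and for APOE without control replicate 2 (0.20; range -0.73 to 0.20). With spike-in totals the median of all genes tested was -0.68, and APOA2 (-0.59), APOB (-0.011) and APOC3 (-0.20) changed direction. Spike-ins held 1.62% and 2.10% of all counts in the DKO libraries and 1.47% and 0.946% in the control libraries. In that fit the SE was 0.52 for APOH and 0.54 for MTTP, against 0.20 for each in the main fit. With RLE scaling and limma-voom no call among the 10 genes changed. The GC fit used fewer genes, and the causes of the other changes were not tested. A fit without 1 library has a lone library in that clone, which is assumed to vary like the others. Of the 10 genes, APOA4 had the fewest counts, 19 to 81 a library.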
